A study of Mus musculus with 8 samples.

Results

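Of 12190 gene-end windows measured in mouse nephron progenitors, 260 windows (2.13%) were highly methylated. A window here is 1.5 kb long, with 1000 bp outside and 500 bp inside a protein-coding or long noncoding RNA (lncRNA) gene on an autosome. It lies at whichever end of the gene had more CpGs in any library. At least 3 of its CpGs had 10 or more reads in all 8 libraries. A window counted as highly methylated when the mean of its pooled levels (methylated reads as a percent of all reads over its CpGs) in the 4 unrestricted libraries was 80% or more. These unrestricted levels therefore chose the windows and are given as a description only. The 260 windows hold 1318 distinct CpGs. In 20 of them the CpGs are exactly those of another window in the set, and 29 share at least 1 CpG with another, which leaves 250 distinct sets of CpGs.

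Methylation of cytosine in CpG pairs is the main chemical mark on mammalian DNA. Most CpGs of a somatic cell carry it, while the CpG-rich islands at the starts of many genes do not. A known exception is a set of genes used in germ cells, whose starts are CpG-rich and become methylated in the embryo's somatic cells. Mutation of methylated cytosine removes CpGs over evolutionary time, so long-methylated sequence is usually CpG-poor.

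The DNA came from kidneys of CD1 outbred mouse embryos at E17.5, all heterozygous for the transgene Tg(Six2-EGFP/cre), which they inherited from Six2 Cre+/tg males mated with wild-type CD1 females. The Six2 promoter drives the green fluorescent reporter by which the nephron progenitors, the stem cell pool of the developing kidney, were sorted. Mothers were given either 70% of the average daily food intake (restricted, 4 libraries) or unrestricted food (4 libraries). Reduced representation bisulfite sequencing (RRBS) covers short restriction fragments rich in CpGs. Whether a library held 1 litter or several is not in the labels, so a p-value here reflects the spread among 8 libraries, which may be technical, and embryos were not separated by sex. Coverage summed over CpGs was 16045992 to 37305007 per library, with a read counted at each CpG it covered. The median CpG covered in all libraries had 20 to 44 reads per library. The window of the sorting gene Six2 was at 0.0599% methylation, and all 9 measured windows of 16 nephron progenitor genes lay at or below 0.206%. Measured windows of ureteric bud (4), stroma (4), podocyte (3), tubule (1) and blood (1) genes were also all below 20% and no endothelial gene was measured, so these windows do not tell the cell types apart.

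The sequence around the start is printed for a few named protein-coding members. It does not represent the lncRNA members or the far ends. RefSeq promoters (assembly GRCm38.p6, with the same coordinates as mm10) run from 250 bases before to 50 bases after the annotated start. They are printed 5′ to 3′ on the gene's strand with each CG in capitals, for the members whose promoter holds the most measured CpGs and, after them, those with the fewest CG pairs among promoters that hold a measured CpG. Slc25a31 lies at chr3:40708621-40708920 on the plus strand, Asz1 at chr6:18109012-18109311 on the minus strand, Dnajc5g at chr5:31108069-31108368 on the plus strand, Fgb at chr3:83049814-83050113 on the minus strand and Lrrc74a at chr12:86734119-86734418 on the plus strand. Dnajc5g and Slc30a3, which are divergently transcribed, share their measured CpGs, so their common start region is printed once.
Slc25a31: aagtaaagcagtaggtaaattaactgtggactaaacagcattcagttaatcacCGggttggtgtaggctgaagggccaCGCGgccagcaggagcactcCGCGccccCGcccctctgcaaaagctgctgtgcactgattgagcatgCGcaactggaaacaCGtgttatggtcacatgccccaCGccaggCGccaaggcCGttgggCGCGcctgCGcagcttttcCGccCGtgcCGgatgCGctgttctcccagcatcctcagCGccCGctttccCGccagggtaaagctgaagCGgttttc
Asz1: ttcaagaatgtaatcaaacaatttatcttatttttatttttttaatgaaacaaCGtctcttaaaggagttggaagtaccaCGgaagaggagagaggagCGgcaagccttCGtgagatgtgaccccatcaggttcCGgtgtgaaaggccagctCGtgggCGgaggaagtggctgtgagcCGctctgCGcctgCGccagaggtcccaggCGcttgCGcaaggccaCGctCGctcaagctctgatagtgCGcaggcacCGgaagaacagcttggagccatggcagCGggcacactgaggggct
Dnajc5g: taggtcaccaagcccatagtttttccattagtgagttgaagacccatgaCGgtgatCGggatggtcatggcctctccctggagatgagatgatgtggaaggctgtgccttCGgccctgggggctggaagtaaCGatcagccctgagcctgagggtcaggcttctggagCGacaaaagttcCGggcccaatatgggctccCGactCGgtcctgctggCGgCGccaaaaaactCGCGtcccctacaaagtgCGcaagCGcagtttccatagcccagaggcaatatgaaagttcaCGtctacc
Fgb: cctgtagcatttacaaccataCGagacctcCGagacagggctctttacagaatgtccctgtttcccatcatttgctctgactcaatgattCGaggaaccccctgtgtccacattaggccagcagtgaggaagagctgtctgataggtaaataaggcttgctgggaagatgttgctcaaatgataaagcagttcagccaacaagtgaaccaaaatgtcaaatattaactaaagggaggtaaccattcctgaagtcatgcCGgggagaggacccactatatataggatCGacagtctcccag
Lrrc74a: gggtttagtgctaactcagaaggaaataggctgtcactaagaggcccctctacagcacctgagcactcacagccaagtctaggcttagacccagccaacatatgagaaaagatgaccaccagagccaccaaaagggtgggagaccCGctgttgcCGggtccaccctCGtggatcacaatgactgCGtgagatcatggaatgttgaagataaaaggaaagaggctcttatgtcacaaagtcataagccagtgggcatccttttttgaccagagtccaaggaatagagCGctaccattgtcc

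Slc25a31 encodes the adenine nucleotide translocase of male germ cell mitochondria, and its printed sequence has 22 CG pairs. The 20 of them that were measured had unrestricted means from 56.2% to 98.1%. The lowest, 56.2% unrestricted and 53.2% restricted, was the CG at base 160, counted from 1 at the 5′ end, which lies inside the only CACGTG of the sequence (its first base is base 158). Asz1 encodes an ankyrin repeat protein of the germ cell pathway that silences transposons with small RNAs, and 10 of its 17 CG pairs were measured. The CG at base 224 was at 10.8% in the unrestricted mean, and the other measured ones were between 88.1% and 100%. Dnajc5g encodes a DnaJ-type chaperone and Slc30a3 the zinc transporter of synaptic vesicles, and the 9 measured CpGs of their shared start were between 88.3% and 99.4%. The promoter of Fgb, the fibrinogen beta chain gene of liver, has 5 CG pairs. Its only measured one, at base 287, was at 88.2%. Lrrc74a, a leucine-rich repeat gene whose window shares its CpGs with that of Angel1, also has 5, of which the 3 measured were at 79.4%, 96.6% and 98.1%.

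The windows lay at the top of a distribution with few values in the middle. Of the 12190 windows, 11548 were below 20%, 382 were between 20% and 80%, and 260 were at 80% or more. The median member was at 91.6%, the range ran from 80.4% to 98.5%, and 152 members were at 90% or more. Close to the threshold the numbers were small, with 20 members within 2 points above it and 17 windows within 2 points below. The named genes just above it were Ccdc201 (80.4%), Klb (80.7%) and Ecel1 (80.8%), and those just below were Angptl6 (79.97%), Il22ra1 (79.8%) and Slit1 (79.7%). In the 4 restricted libraries, which the rule did not use, the median was 91.3%, and 247 of the 260 windows had a mean of 80% or more. In 205 windows the level was 80% or more in each of the 8 libraries.

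**Figure D1:**
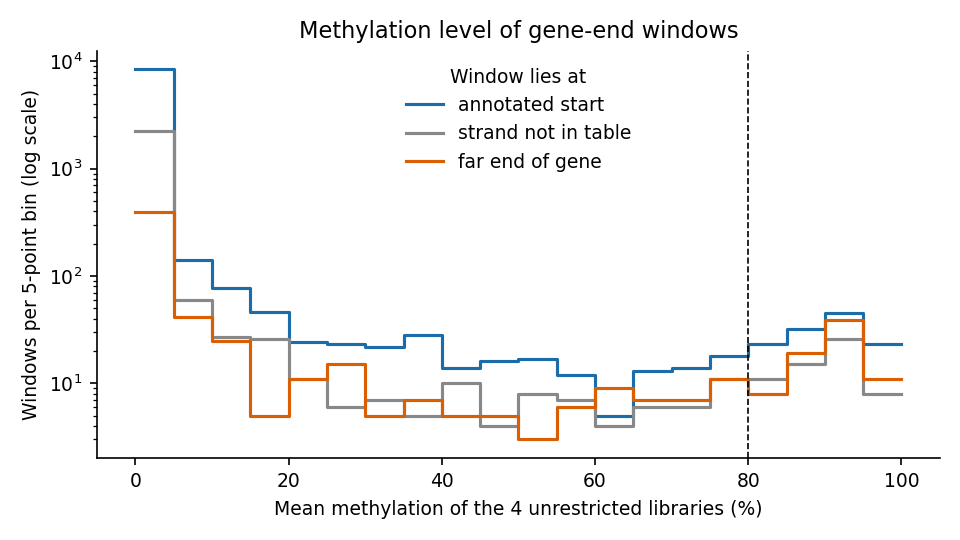
Windows per 5-point bin of unrestricted mean methylation in percent, on a log scale, for windows at the annotated start, at the far end and at genes without a strand in the table. The dashed line marks the 80% threshold, above which 123, 77 and 60 windows lie in that order.

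Highly methylated windows had few CpGs. Their median was 4 measured CpGs per window (range 3 to 27), against 17 (3 to 111) over all measured windows and 5 in the windows between 20% and 80%. With CpGs of any depth counted, the medians were 10 and 48. Exactly 3 CpGs were measured in 91 members (35%), and 10 or more in 26 (10%), against 73.4% of all windows. The share of windows at 80% or more was lower in each class of higher CpG number, from 91 of 501 windows with 3 CpGs (18.2%) and 91 of 902 with 4 to 5 (10.1%) to 52 of 1834 with 6 to 9 (2.84%). Only 23 of 3760 windows with 10 to 19 CpGs (0.612%) and 3 of 5193 with 20 or more (0.0578%) were in the set. Those 3 were the windows of Grin3b, an NMDA-type glutamate receptor subunit, with 27 CpGs, of Fam50b with 24, and of Slc25a31 with 23. The next had 17 CpGs each: Crybb3, a crystallin of the eye lens, H2ac1 and H2bc1, histones of testis that share their CpGs, and the models 1700120K04Rik and Gm46775.

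Gene-end windows of lncRNA genes made up 119 of the 260 (45.8%), against 18.01% of all measured windows, 45.3% of those between 20% and 80%, and 16.5% of those below 20%. Members with no gene name beyond a model or clone identifier numbered 122 (46.9%, against 19.4% of all windows). Among windows with 3 to 6 CpGs, 48.0% of the 204 members and 28.1% of the 1678 other windows belonged to lncRNA genes. The remaining 141 members were protein-coding genes. Members overlapped the body of another gene in 44.6% of cases and all windows in 48.9%. For lncRNA genes alone, 52.9% of the members and 79.5% of all windows did so. Whether a window lay over exons, introns or untranslated regions was not analysed here.

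The RefSeq promoter table gave a strand for 200 members, so the window could be placed at the annotated start or at the far end of the gene. It lay at the start in 123 (61.5%) and at the far end in 77, whereas 93.5% of all windows with a strand lay at the start. Between 20% and 80% the share at the start was 69.4%, so a low share is not particular to the members. Among windows with 3 to 6 CpGs the values were 57.9% of members and 85.8% of other windows. At the start, 66 of 7562 windows of protein-coding genes (0.873%) and 57 of 1481 of lncRNA genes (3.85%) were highly methylated. At the far end the counts were 44 of 394 (11.2%) and 33 of 237 (13.9%). Of these far-end windows, 44 of protein-coding and 47 of lncRNA genes lay between 20% and 80%. Genes without a strand gave 31 of 2038 (1.52%) and 29 of 478 (6.07%). These shares are descriptions without a test, since the level itself defined the set and neighbouring genes share CpGs.

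**Figure D2:**
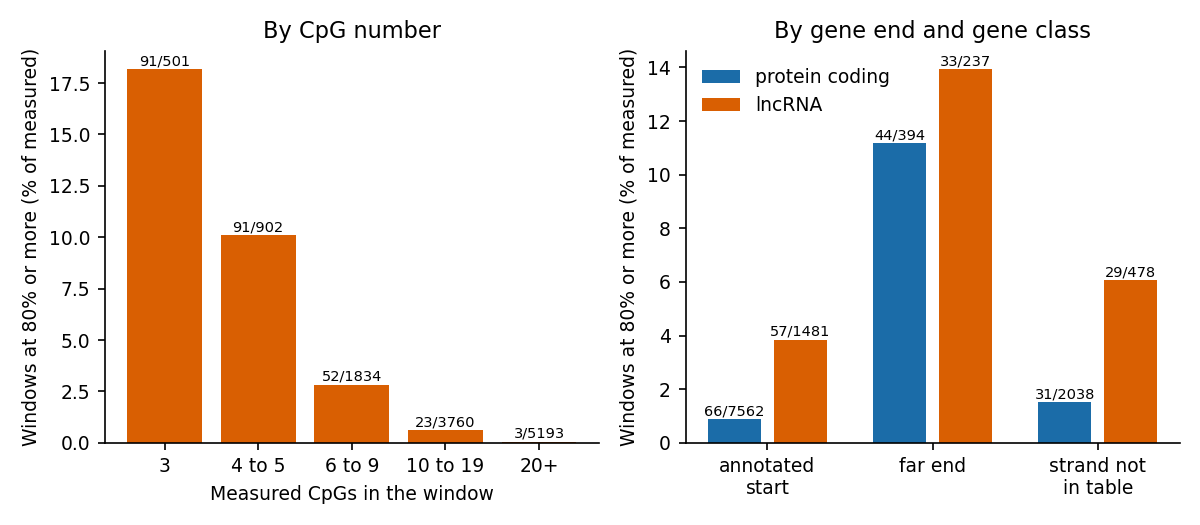
Percent of measured windows that were at 80% methylation or more, by the number of measured CpGs (left) and by gene end and gene class (right), with the counts above each bar. The share is 18.2% with 3 CpGs and 0.0578% with 20 or more, and for protein-coding genes it is 0.873% at the annotated start and 11.2% at the far end.

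The other end of the gene was also measured for 15 members, and in 10 of these both windows were apart from each other. In 8 of the 10 the other end was below 20%, and in 2, Aknaos (an antisense lncRNA of Akna) and the model Gm38744, it was at 80% or more. The far ends of Pdzd7, a scaffold protein of hair cells, and Ppp2r5b, a regulatory subunit of protein phosphatase 2A, were at 93.4% and 91.5%, and their annotated starts at 0% in all 8 libraries. Cacnb3, a calcium channel subunit, had 90.04% at its far end and 1.21% at its start, and Cdhr5, a cadherin of the brush border, 84.9% and 5.10%. The lncRNA models Gm40713 and Gm52742 had the reverse, with 92.4% and 87.3% at the start and 2.46% and 4.61% at the far end. Rab4a, a small GTPase of recycling endosomes whose strand was not in the table, had 92.9% at the chosen end and 0% at the other. With CpGs placed by distance, the mean of 250-bp bins was 88.5% to 90.8% at annotated starts and 89.9% to 91.4% at far ends. Bins of members without a strand were at 86.4% to 91.1%, and bins over all windows at 0.989% to 4.45%. These CpG levels also chose the windows, so high bin means follow from the rule.

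Germline genes were the list with the most members. Of 20 measured germline genes, 11 (55%) were highly methylated, against 2.13% of all measured windows, and 10 of these 11 windows lay at the annotated start (the window of Dppa3 had no strand). Of the other 9, Zfp42 was at 70.1% and Pou5f1, a pluripotency factor, at 37.9%. Lin28a, Mei1, Mnd1, Nobox, Prdm9, Rbm46 and Smc1b were below 20%, with Nobox at 15.4% and Prdm9, the enzyme that marks sites of meiotic recombination, at 0%. The germline members had a median of 10 measured CpGs per window and the remaining members 4. The list is a selection of known germ cell genes, made with earlier results of these data known, so its share is a description.

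By role, the germline members fall into small RNA pathway proteins, meiotic and RNA-binding proteins, regulators, and testis forms of structural or metabolic proteins. Mael, which takes part in transposon silencing, had 88.4%, 85.7%, 84.2% and 81.8% in unrestricted libraries 1 to 4 and 86.5%, 93.9%, 93.3% and 83.9% in restricted libraries 1 to 4. The groups overlapped (85.02% ± 2.76 against 89.4% ± 4.96, SD, n = 4 each). Asz1 had 86.1%, 85.3%, 87.8% and 87.9% in the unrestricted libraries and 86.6%, 96.5%, 87.5% and 87.2% in the restricted ones. Restricted library 2 lay apart from the rest. That library also differed at the CpG of base 224 printed above, where it was at 88.2% and the other 7 libraries between 0% and 16.7%, each library having 16 to 48 reads there. In these outbred mice a base difference at a single CpG cannot be told apart from a methylation difference without the reads, which were not used here. Tdrd9, a helicase of the same pathway, was at 95.1% ± 2.28 unrestricted and 96.5% ± 2.59 restricted.

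Hormad1, a protein of the meiotic chromosome axis, had 84.1%, 86.9%, 80.6% and 84.96% in the unrestricted libraries and 82.6%, 86.1%, 85.04% and 84.7% in the restricted ones. Dazl, an RNA-binding protein of germ cells, had 79.2%, 80.5%, 82.8% and 81.0% and 82.3%, 80.6%, 77.2% and 81.5%. Both genes had overlapping groups and levels near the threshold. Sohlh2, a transcription factor of early germ cell differentiation, was the named member of highest level, at 97.4% ± 1.35 unrestricted and 95.9% ± 1.81 restricted. Dppa3, which protects the maternal genome's methylation in the zygote, had 85.1%, 86.5%, 83.5% and 91.6% unrestricted and 79.8%, 80%, 80% and 85.4% restricted, so restricted library 4 overlapped the unrestricted range.

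Slc25a31 had 84.8%, 88.0%, 88.0% and 85.5% in the unrestricted libraries and 83.7%, 89.0%, 86.8% and 83.3% in the restricted ones. Summed over its CpGs, it had 317 to 772 reads per library, with a read counted at each CpG it covered. H2bc1, the histone H2B of testis, shares its 17 CpGs with H2ac1 and was at 92.2% ± 3.76 and 93.3% ± 0.265. Tuba3b, an alpha-tubulin of testis, was at 96.4% ± 0.949 and 96.5% ± 1.76, and Dpep3, a dipeptidase of testis, at 96.9% ± 3.02 and 97.5% ± 1.77. The groups of all 11 germline windows overlapped. The mean over the 11 windows was 89.8% ± 0.841 unrestricted and 90.1% ± 0.853 restricted (SD over 4 libraries each).

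**Figure D3:**
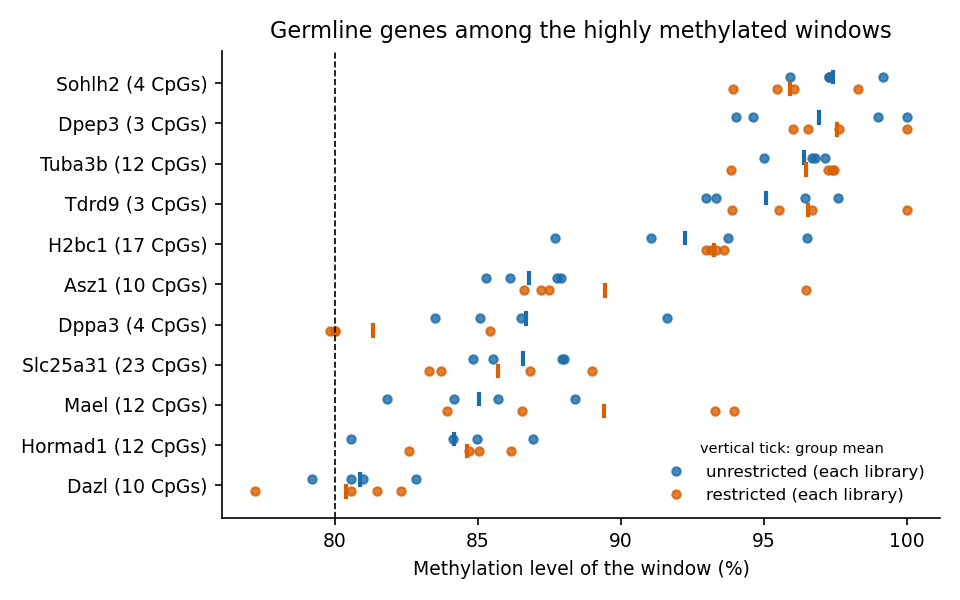
Methylation in percent of the 11 germline windows at 80% or more, with 1 point per library (blue unrestricted, orange restricted, 4 each), the group mean as a vertical tick and the threshold as a dashed line. Groups overlap in each row, and restricted library 2 of Asz1 lies at 96.5%, above the 85.3% to 87.9% of the other 7 libraries.

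The imprinted and methylation machinery lists held 1 member each. Zdbf2, an imprinted gene, was in the set at 95.4% ± 0.533 unrestricted and 95.4% ± 0.949 restricted (8 CpGs), whereas 10 of the 27 measured imprinted genes were between 20% and 80% and 16 below 20%. Dnmt3l, the cofactor of the de novo methyltransferases in germ cells, was at 81.5% ± 1.84 and 84.4% ± 5.78 (4 CpGs), and the other 12 of 13 measured genes of that list were below 20%. These genes, such as Dnmt3b, Tet1 and Uhrf1, had unrestricted levels of 0.172%, 0.0659% and 0%.

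Gene classes sorted by symbol covered few of the members: 36 of 260 fell into a named class, 122 were unnamed models, and the other 102 had no class. Chemosensory receptors had 2 of 7 measured windows at 80% or more, those of Taar4, a trace amine receptor (95.2%), and Olfr1156, an olfactory receptor (96.3%). Keratins and skin barrier proteins had 2 of 9, Krt9 (93.6%) and Krtap15 (91.9%). None of these chemosensory and keratin windows was placed at an annotated start. The classes hold 1509 and 152 genes, so few of their genes were measured. Secreted hormones and milk, saliva or urinary proteins, the class that Fgb was sorted into, had 2 of 14, Fgb (92.8%) and the odorant-binding protein Obp2a (90.6%). Defensins and antimicrobial proteins had 1 of 7, Pglyrp1, which binds bacterial peptidoglycan (96.9%), and its window was not placed at an annotated start. Immune surface and signalling molecules had 7 of 94 (7.45%), among them the chemokine genes Ccl3 and Ccl4, which share 3 CpGs (92.2%), and Tlr12, a sensor of parasite protein (82.3%). Of these 7 windows, 1 was placed at an annotated start. Germ cell and sperm proteins by name had 6 of 75 (8%), all 6 at an annotated start. Secreted proteases and their inhibitors had 2 of 29 (6.90%), with 1 at a start. Cytochrome P450 and detoxification enzymes had 2 of 43 (4.65%), also with 1 at a start.

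Solute carriers and ion channels had 8 of 325 (2.46%), and 2 of these 8 lay at an annotated start. Other G protein-coupled receptors had 1 of 64, the niacin receptor gene Hcar2 (96.5%), and muscle and motor proteins 1 of 29, nebulin (Neb, 95.9%). Zinc finger proteins had 2 of 254 (0.787%), Zfp109 and Zfp335. No member of these receptor, muscle and zinc finger classes was placed at an annotated start. No window of 129 homeobox and forkhead factors reached 80%, the highest being at 17.1%, and none of 18 microRNA or snoRNA host genes did. Most classes had so few measured windows that 1 gene moves the share by several points.

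The start sequences of members had fewer CG pairs than those of windows below 20%. For 108 members the RefSeq start lay inside the window, and their 300-base promoters had a median of 6 CG pairs, a GC content of 51% and an observed-to-expected CpG ratio of 0.351. The 8168 promoters of windows below 20% had 24 CG pairs, 63.7% GC and a ratio of 0.805. The 190 promoters of windows between 20% and 80% were close to the members, with 8 CG pairs, 55% GC and a ratio of 0.380. The 10 germline members had 17 CG pairs and a ratio of 0.694, and the other 98 members 6 and 0.308. Of the 108 promoters, 27 held a measured CpG, so the window level of most comes from CpGs outside that interval.

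Both strands of the promoters were searched for TCCCGC, the core of the E2F6 motif, and for CACGTG, the palindromic E box. TCCCGC was found in 12 of the 108 member promoters (11.1%) and in 13.2% of promoters of windows between 20% and 80%. Of promoters of windows below 20%, 41.2% held it, and of all 32851 RefSeq promoters 20.0%. CACGTG was found in 16 (14.8%), 8.95%, 10.9% and 7.15% in that order. Among the 10 germline members, Hormad1, Mael and Slc25a31 held both, Tuba3b held TCCCGC and Tdrd9 held CACGTG, which is 40% for each motif. Of the 7 germline list promoters with a level below 80%, 57.1% held TCCCGC and 14.3% CACGTG. A match is a description and not a site or a cause, and the part of CpG content in these shares was not tested, although both motifs contain CG.

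The spread between libraries was set beside a binomial counting SD, which takes each count (1 read at 1 CpG) as independent. A read that covers several CpGs counts at each of them, so this SD can understate read sampling. The median SD of a member over the 4 unrestricted libraries was 2.41 points (range 0.275 to 8.81), against 2.34 from such counting. How much of the spread is read sampling was not tested. In windows with 10 or more CpGs, which have more counts, the median SD was 1.65 points against 1.34 from counting. Windows between 20% and 80% had a larger spread, 4.44 points against 3.77. The largest SDs among named genes were those of Ube2l6, a ubiquitin- and ISG15-conjugating enzyme (8.81), Vxn (8.70) and Ccdc201 (5.65). Each had a lowest library of 33 to 39 counts. The smallest among named genes with 10 or more CpGs were those of Fam50b (89.9% ± 0.286), Wdr20rt (95.9% ± 0.733) and Pld5 (85.1% ± 0.863). Members had 30 to 1619 counts per library, summed over the CpGs of the window. The median exact 95% binomial interval of a level was 10.7 points wide. It takes the counts as independent, so it can be too narrow.

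**Figure D4:**
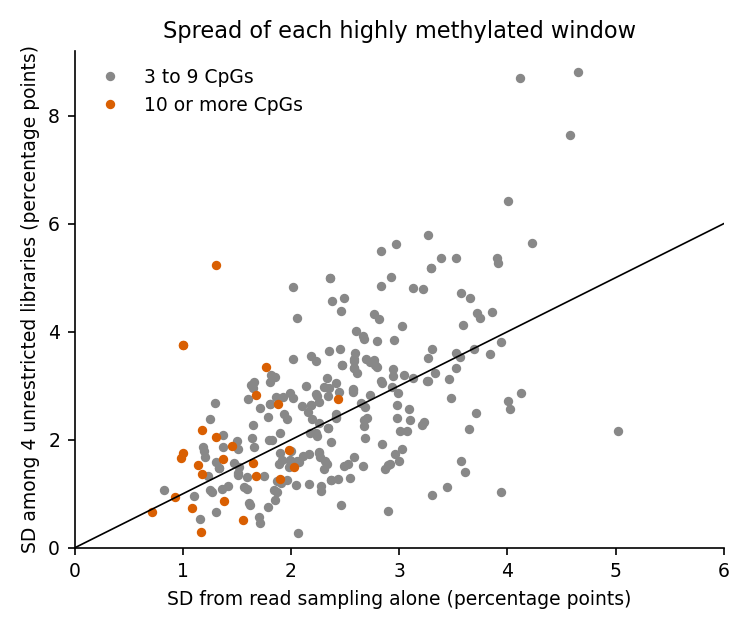
SD of each of the 260 windows among the 4 unrestricted libraries against a binomial counting SD, both in percentage points. Windows of 10 or more CpGs are in orange, with the line of equality. The counting SD, named read sampling on the axis, takes each read at each CpG as independent and can be too small. The medians are 2.41 and 2.34 points.

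Most single CpGs of the windows were highly methylated, which the rule itself favours. Of the 1318 CpGs, 1179 (89.5%) were at 80% or more and 491 at 95% or more. The median difference between the highest and lowest CpG of a window was 12.9 points, against 48.3 in windows between 20% and 80%. It was 7.29 points in members of 3 CpGs and 24.7 in members of 10 or more. A mean of 80% or more limits this range, so the contrast is a description. A few CpGs were far below the rest: 16 were below 50% and 11 below 20%, in 15 windows. At Mirt2, an lncRNA of heart, chr15:76270066 was at 0% in all 8 libraries (10 to 34 reads) inside a window of 81.2%. The same limit on base differences holds for this CpG and the next ones. At Cmtm5, chr14:54935266 was at 0.735%, and at Aknaos, chr4:63377100 was at 1.83%, while the highest CpGs of these windows were at 98.2% and 99.4%. Pld5 had low CpGs at chr1:176282257 (6.63%) and chr1:176282465 (9.05%), and Dazl had 1 at chr17:50293129 (15.5%).

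Maternal food restriction was compared in a logistic model of methylated on total reads, fitted to all 10933 windows with both kinds of read. No member passed the adjusted threshold (0 of 260; Benjamini-Hochberg adjusted p under 0.05), beside 0.0823% of all windows tested (0.0732% lower, 0.00915% higher). These 9 calls over all windows were 0 with limma, 18 without unrestricted library 2 and 32 without restricted library 3. At an unadjusted p under 0.05 there were 16 members (6.15%), 9 lower and 7 higher in the restricted libraries, beside 6.82% of all windows (3.75% lower, 3.07% higher). On the members, limma on M-values gave 0 calls and 4 at that unadjusted p (1.54%, beside 6.84% and 0 calls over all windows). edgeR's quasi-likelihood test gave 0 and 7 (2.69%, beside 4.43% and 12 calls over all windows). The smallest adjusted p of a member was 0.209. Since the unrestricted levels chose the members, a window just above 80% tends to a negative difference, and these counts support nothing by themselves. Between 20% and 80%, 62 of 382 windows (16.2%) had an unadjusted p under 0.05.

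The mean over the 260 windows was 89.7%, 90.9%, 90.4% and 90.3% in unrestricted libraries 1 to 4 and 89.8%, 89.9%, 90.4% and 90.3% in the restricted ones. The difference, restricted minus unrestricted, was -0.227 points (90.1% ± 0.275 against 90.3% ± 0.477, SD, n = 4 each), smaller than the spread within the unrestricted group. It is -0.0765 points over all windows. Single differences ran from -9.72 points at Smpd5, a sphingomyelinase gene (82.1% to 72.4%), to 7.49 points, with 211 of 260 within 3 points, 131 below 0 and 129 above. With windows chosen on the mean of all 8 libraries the difference was 0.174 points, and with windows chosen on the restricted libraries 0.265 points. Reads of restricted libraries 1 and 2 lean to unmethylated CpGs: their read-weighted mean level lay 2.24 and 3.28 points below the mean over CpGs, and the other libraries between -0.575 and 0.817 points from it. With both left out the difference was 0.00445 points, with 0 calls and 18 members (6.92%) at an unadjusted p under 0.05, beside 6 calls and 5.45% over all windows.

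Grin3b had the smallest p of all members in the logistic model. Its window at the far end of the gene, chr10:79976691-79978190, overlaps Tmem259 and holds 27 CpGs. Summed over these, it had 394 to 1138 reads per library, with a read counted at each CpG it covered. It had 83.8%, 84.8%, 88.9% and 86.3% in the unrestricted libraries and 81.6%, 79.2%, 78.1% and 83.8% in the restricted ones, and the groups did not overlap. The difference was -5.27 points (logistic model, adjusted p = 0.209). Its unadjusted p was 0.162 with limma, 0.0879 with edgeR and 0.0658 in the logistic model with the replicate number as a block.

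H2-Oa, a chain of a class II histocompatibility molecule of B cells, had 87.2%, 88.9%, 91.7% and 84.6% unrestricted and 73.3%, 88.2%, 80.5% and 77.8% restricted at its far end (4 CpGs, adjusted p = 0.332, logistic model). Restricted library 2 lay among the unrestricted values. Crhbp, which binds corticotropin-releasing hormone, had 92.4%, 91.6%, 87.5% and 93.1% unrestricted and 83.1%, 84.6%, 85.6% and 88.5% restricted at its start (4 CpGs, adjusted p = 0.438, logistic model). The groups overlapped by 1 library on each side.

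The named members of smallest p with higher restricted levels were Spaca4, Il4i1 and Ppp2r5b, each with an adjusted p of 0.675 (logistic model). Il4i1, an amino acid oxidase of immune cells, had 87.4%, 88.2%, 89.1% and 85.1% unrestricted and 92.3%, 92.6%, 89.2% and 91.6% restricted at its far end, with groups that did not overlap. Spaca4, a sperm acrosome protein, was at 96.2% ± 3.08 and 99.2% ± 1.67, with as few as 30 reads in a library summed over its CpGs. Its difference was 2.95 points, 0.407 points with CpGs of 5 or more reads and 1.87 points without unrestricted library 1, and in both of these its unadjusted p was not under 0.05. Ppp2r5b was at 91.5% ± 1.87 and 94.6% ± 1.72. The groups of Spaca4 and of Ppp2r5b overlapped.

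Groups that did not overlap were found at 7 members (2.69%), 4 lower and 3 higher, beside 1.58% of all windows tested (0.942% lower, 0.64% higher). The lower ones were Grin3b, Rtp2, the protein-coding gene CN725425 and the lncRNA model Gm42142, and the higher ones Il4i1, Cyp4a29 and Prss30. The smallest exact permutation p of 4 libraries against 4 is 0.0286. Rtp2, which brings odorant receptors to the cell surface, had 87.5%, 88.0%, 88.4% and 89.1% unrestricted and 83.0%, 84.6%, 85% and 84.3% restricted. Cyp4a29, a cytochrome P450 of fatty acid metabolism, had 83.7%, 86.1%, 80% and 86.1% and then 86.9%, 87.1%, 86.9% and 86.7%. None of these 7 passed the adjusted threshold.

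**Figure D5:**
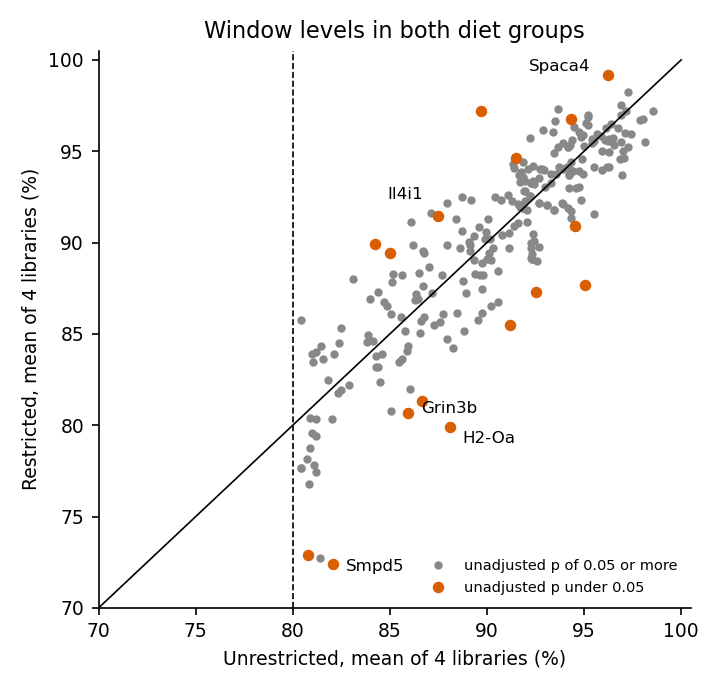
Mean methylation in percent of each of the 260 windows in the 4 restricted libraries against the 4 unrestricted libraries, with the 16 windows of an unadjusted p under 0.05 in orange, the line of equality and the 80% threshold as a dashed line. Points lie on both sides of the line, 131 below and 129 above it, and the lowest, Smpd5, is at 72.4% in the restricted group.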

How the data were processed

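RRBS calls were analysed for 4 restricted and 4 unrestricted libraries, grouped by their labels. Per the submitters' processing notes, the authors used Trim Galore 0.3.3, cutadapt, FastQC, Bismark 0.13.1 and methylKit with mm10. The deposited files give, per CpG cytosine and strand, the count of covering reads and the percent of them methylated. Methylated reads were recovered by rounding and both strands were added. Coverage summed over CpGs was 16045992 to 37305007 per library, which is not a number of reads. Mitochondrial CpGs were called methylated in 0.0221% to 0.0854% of reads. Intervals reflect counting error alone, because PCR copies were not told from molecules. They can be too narrow, because a read was counted at each CpG it covered and these counts were taken as independent.

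Gene positions, starts and strands came from RefSeq tables of GRCm38.p6. Of 33069 autosomal genes, 312 had a tie between their ends and were left out. Of 212 list entries 2 had no match. Levels are pooled per window, groups are means of 4 libraries with SD, and differences are restricted minus unrestricted. Tests were logistic likelihood-ratio F tests with Pearson dispersion moderated across windows by a Python port (numpy 2.4.6, scipy 1.17.1) of limma's squeezeVar and not under 1, adjusted by Benjamini-Hochberg over 10933 windows. Only the logistic model was tested on simulated data, with planted changes larger than any difference of a member. Recovery of changes as small as those of the members was not tested. Alternatives were limma 3.58.1 on M-values (1 read added), edgeR 4.0.16, a replicate block, other coverage minimums, CpG numbers, thresholds and choosing libraries, and leaving out each library. Leaving out restricted libraries 1 and 2 together was added after seeing the data.

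The windows, lists and classes were chosen with earlier results of these data known. Named genes were those of smallest p per direction, highest level, nearest to the threshold, most CpGs or reads, largest or smallest SD, widest range inside the window, up to 3 per class, and all list members. Unnamed models came last. Rtp2, Cyp4a29, Prss30, CN725425 and Gm42142 are named as the windows whose groups do not overlap, Smpd5 as the lowest difference, and Gm38744, Gm40713, Gm52742, Cacnb3, Cdhr5, Pdzd7 and Rab4a for both ends, after their values were seen.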

Additional observations from a re-analysis of the deposited data

Results flagged for a closer look

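In 8 of 116 groups of 4 libraries (the named windows and the mean over all windows, in both diets), 1 library lay far from the other 3 by Dixon's criterion, which chance meets in about 1 in 20 groups. Restricted library 2 was at 96.5% at Asz1 (the others 86.6% to 87.5%), at 93.8% at Tuba3b (97.2% to 97.4%) and at 96.7% at Spaca4 (all others 100%). Restricted library 4 was at 85.4% at Dppa3 (79.8% to 80%) and at 73.8% at Cmtm5 (80.1% to 80.8%). Among the unrestricted libraries, library 3 was at 95.8% at Serpina1a (90.8% to 91.5%), library 1 at 93.0% at Adam6b (87.2% to 87.5%) and library 4 at 88.6% at Fgb (94.1% to 94.4%). At Asz1 the library also differed at 1 CpG, chr6:18109087, which was at 88.2% there and between 0% and 6.25% in the other restricted libraries.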

How the results depend on the processing

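Of 157 values under alternatives, 150 counted as the same, by a rule that differed with the kind of value. Named windows had to keep their direction and side of the threshold, and the mean difference to move by less than the spread between libraries. The lncRNA and start shares had to stay inside the Wilson interval of the main value. Counts and medians had to stay within a fixed ratio, so 327 windows at a threshold of 70% counted as the same. No alternative called a member. No member was called by diet under any of 21 settings, including each left-out library (0 to 0 calls) and limma and edgeR, and an unadjusted p under 0.05 was found in 1 of 40 (minimum of 20 reads) to 33 of 553 windows (minimum of 5 reads), beside 7.12% and 7.01% of all windows. On the unchanged 260 members it was found in 3 to 23. The number of windows moved most: 40 with at least 20 reads per CpG (34 of them among the 260), 553 with at least 5 reads (228 of the 260 among them), 111 with at least 5 CpGs (median 7 CpGs), and 152 at a threshold of 90%. The mean difference was 0.174 points with the rule on all 8 libraries and 0.265 with the rule on the restricted ones. Leaving out each library in turn it ran from -0.428 to -0.0426 points. With the replicate number as a block, 0 members were called and 3 (1.15%) had an unadjusted p under 0.05, beside 0 calls and 0.906% over all windows. Deviations of libraries with the same number correlated across members at 0.0352, -0.180, 0.0434 and 0.0866 for numbers 1 to 4. Only restricted library 1 correlated most with the unrestricted library of its own number. Counting noise in single windows can hide a shared deviation, so this does not tell whether the numbers pair the libraries. The difference at Grin3b ran from -6.31 to -4.03 points over 13 settings, with adjusted p of 0.0574 to 0.978. Members had as few as 30 reads in a library summed over their CpGs, which limits the precision of their levels.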
